A study of Caenorhabditis elegans with 6 samples.

Results

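The col genes encode cuticle collagens of the nematode Caenorhabditis elegans. The members described here are the 159 features, out of 46761 listed in each deposited table, whose name is col followed by a hyphen and a number. The rule uses the name and no measured value, and it was set with earlier results of these data known. Of the 159 members, 107 had at least 1 read of the 22G class and 52 had none. 34 members had a mean 22G value of 5 or more over the 6 libraries, which was required for testing, as had 9402 features of the whole table. The other 73 members with a read stayed under that minimum.

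Small RNA was sequenced from whole gravid adults of strain BCN1050 in the N2 background. The strain carries the integrated transgene crgIs1002, in which the daf-21 promoter drives mCherry with an unc-54 3′ UTR beside a functional unc-119 copy, in unc-119(ed3) mutants, and every library shares it. The P0 ancestors of the High worms were kept at 25 °C, and those of the Low worms at 16 °C. P0 animals of both groups were moved to 20 °C as L4 larvae, 12 on a plate, and their F1 was bleached after 4.5 days. The F2 was grown for 72 hours at 20 °C at 1000 worms on a plate, so the sequenced animals of both groups had lived at 20 °C. The labels name 3 biological replicates in each group, each a pool of many worms. In such pools, a lower signal from fewer cells of a type and one from less RNA in each cell cannot be told apart. The tables hold small RNA signal and no mRNA level, so the labelled stage was not checked against mRNA markers.

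Cuticle collagens are made in the epidermis. The chains are hydroxylated, assembled into triple helices, trimmed, secreted and crosslinked into the extracellular cuticle, which is rebuilt at every moult with a set of collagens that depends on the stage. 22G RNAs are secondary small RNAs that RNA-dependent RNA polymerases copy from target transcripts and that worm-specific Argonautes carry, in the germline for a large part of them. A 22G value over a col gene is therefore a measure of small RNAs matching that gene and not of its collagen mRNA. The sources used here give neither the definition of the classes nor the strand on which reads were counted.

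The 6 libraries held between 1380170 reads (Low replicate 1) and 2685999 reads (Low replicate 2) in the 22G class, of which 2772 to 7857 lay over col genes. Values are read counts that the authors divided by a size factor for each library, called normalized counts. A single read was worth 0.764 to 1.52 normalized counts, which sets the precision of the low members. Low replicate 1 was the shallowest 22G library, and in the 26G class its normalized total of 57141 exceeded the 17491 to 25760 of the other libraries. Results that rest on it are given with and without it.

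Over the col genes as a whole, 22G signal was higher in High. The 159 members summed to 6554, 6621 and 6430.0 normalized counts in High replicates 1 to 3 and to 4201, 3584 and 3587 in Low replicates 1 to 3. The groups did not overlap, and Low replicate 1 was the highest of the Low libraries. The means were 6535 ± 96.8 and 3790.7 ± 355 (SD, n = 3 each), a ratio of 1.72 of High over Low. As a share of all 22G signal, col genes took 0.314% ± 0.00498 in High and 0.184% ± 0.0145 in Low. This sum over the members is given without a test.

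A small number of genes carried the sum and its difference. The most abundant member, col-71, held 35.0% of the summed signal in High and 57.2% in Low. Without it the sums were 4248 ± 37.4 and 1622 ± 228 (SD, n = 3), a ratio of 2.62. The gene col-111 made up 47.0% of the net difference between the groups and col-38 made up 21.5%. The 14 members called higher, described next, summed to 3431 ± 89.6 in High and 793 ± 142 in Low. The 19 tested members that were not called summed to 2735 ± 78.8 and 2615 ± 204, which differed by less than the SD of the Low group. These 2 sets were split by the test between the groups on these same libraries, so nothing is read from their contrast.

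**Figure D1:**
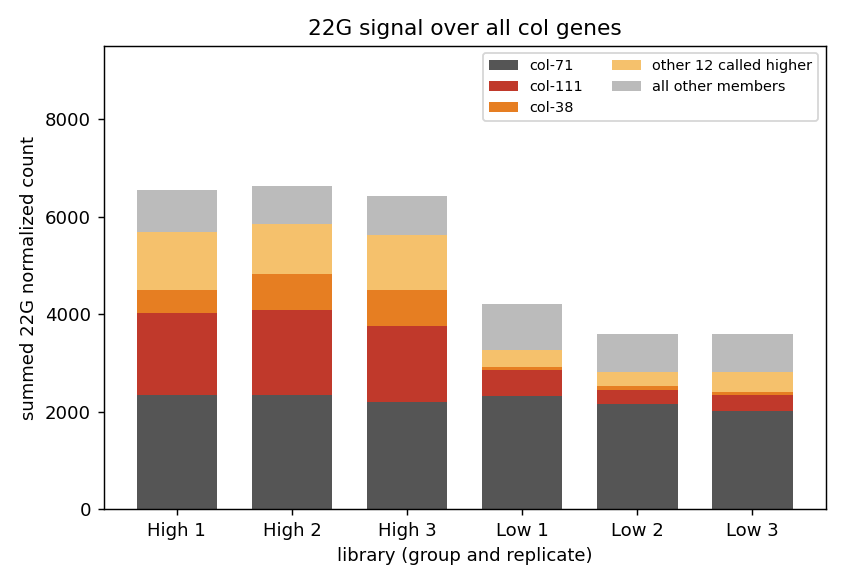
Stacked bars of the summed 22G normalized count over all 159 col genes (y axis) in each of the 6 libraries (x axis), split into col-71, col-111, col-38, the other 12 members called higher and all remaining members. The col-71 layer is of like height in every library, between 2022 and 2339.6, while the col-111 and col-38 layers are deep in High and thin in Low.

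The comparison between the groups asks which of these genes differed in 22G RNAs according to the temperature of the grandparental generation. limma-trend was fitted over all 9402 tested features to log2-transformed normalized counts with a pseudocount of 1, taking High minus Low, and a feature was called at a Benjamini-Hochberg adjusted p under 0.05. Of the 34 tested col genes, 14 were called higher in High and 1 was called lower. Among all tested features 8.3% were called, 5.64% higher and 2.66% lower. The median log2 difference was 0.50 over the 34 col genes and 0.01 over all tested features. The 3 libraries of one group lay apart from those of the other for 18 of the 34, with 16 of them higher and 2 lower in High, against 22.7% of all tested features. The 16 and the median include col-2, col-7, col-53, col-62, col-89 and col-158. These had Low means under 5 and reached the minimum only through the High libraries, and col-7 and col-62 have identical values. The gene col-132, among the 2 lower, reached it only through the Low libraries. Nothing is read from the part of these members in the counts. Each of the 14 rises was over 2-fold on this scale, 10 were over 4-fold and 3 over 8-fold. The limit given for col-7, col-53, col-62, col-89 and col-158 holds here too. The 10 include col-7, col-53, col-62 and col-158, and the 3 include col-53 and col-158. The shares over all features at 4-fold and 8-fold are not given here, so nothing is read from the 10 and the 3. Among the 530 features called higher, 349 were over 2-fold.

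The calls were also counted by level. Of 15 col genes with a mean of 20 or more, 9 were called higher, against 6.79% of all tested features at that level. The 9 include col-130, col-39 and col-103, with Low means of 13.6, 12.4 and 7.49. These genes reached a mean of 20 only through the High libraries, so nothing is read from their part in the 9. Of 19 with a mean of 5 to 20, 5 were called higher, against 2.08%. These 5 are col-7, col-53, col-62, col-89 and col-158. All 5 had a Low mean under 5 and reached the minimum only through the High libraries, so nothing is read from their count.

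**Figure D2:**
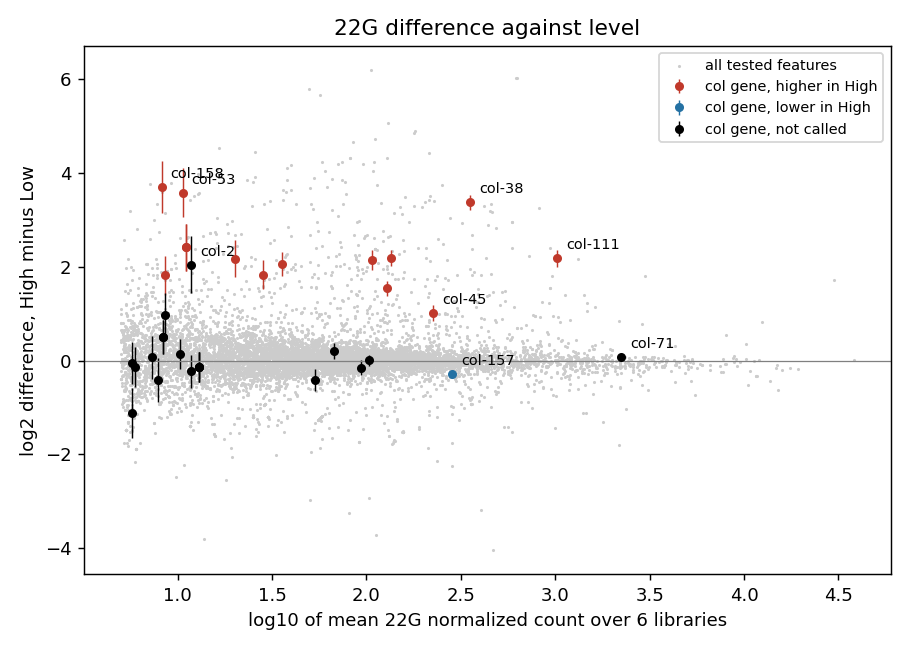
Log2 difference in 22G signal, High minus Low (y axis), against log10 of the mean normalized count over the 6 libraries (x axis), with all 9402 tested features as grey points and the 34 col genes as larger points with their SE. The col genes called higher lie between 1.01 and 3.70 at means from 8.22 (col-158) to 1026 (col-111), and col-71, the most abundant, lies near 0.

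Among the abundant members, col-111 showed the greatest change in normalized counts. It had 1686, 1752 and 1575 in the High libraries and 529, 293 and 322 in the Low libraries. All High values were far above the Low values, and Low replicate 1 was the highest of the Low group. The log2 difference was 2.18 ± 0.17 (SE, n = 3 each; limma adjusted p = 9.65e-06). Per kilobase of exon the level was 1173 in High and 267 in Low.

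The adult-stage collagen gene col-38 had the greatest fold change among members with a mean above 20. Its values were 477, 743 and 729 in High and 59.1, 68.0 and 55.0 in Low. High replicate 1 was the lowest of its group and still lay above every Low library. The log2 difference was 3.38 ± 0.16 (limma adjusted p = 2.55e-07).

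The genes col-161 and col-162, both on chromosome V, rose. The values of col-162 were 240.0, 203 and 223 in High and 63.6, 37.4 and 46.6 in Low. Those of col-161 were 182, 171 and 170.2 in High and 54.6, 25.97 and 40.2 in Low. In both genes the groups were apart, and Low replicate 1 was the highest and Low replicate 2 the lowest Low library. The log2 differences were 2.18 ± 0.17 and 2.15 ± 0.22 (limma adjusted p = 9.65e-06 and 5.62e-05). How far the 2 genes share reads was not tested.

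The members col-60 and col-45 rose with a different order of the Low libraries. The gene col-60 had 216, 171 and 188 in the High libraries against 53.04, 65.7 and 79.4 in the Low ones, a difference of 1.54 ± 0.16 (limma adjusted p = 5.18e-05). The gene col-45 had 305, 267 and 323 in High and 115, 139 and 199 in Low. This was the smallest of the 14 rises, 1.01 ± 0.17 (adjusted p = 0.00237). In these 2 genes Low replicate 1 was the lowest Low library. The call of col-45 was lost in limma without a trend in the variance (adjusted p = 0.0598).

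At intermediate levels, col-130, col-39 and col-103 rose as well. The gene col-130 had 63.9, 54.2 and 55.6 normalized counts in High and 16.7, 8.40 and 15.9 in Low (2.06 ± 0.26, limma adjusted p = 0.000327). The gene col-39 had 51.7, 40.9 and 40.9 in High and 16.7, 6.88 and 13.8 in Low (1.83 ± 0.31, adjusted p = 0.00235). The gene col-103 had 34.1, 32.0 and 32.7 in High and 13.6, 4.58 and 4.23 in Low (2.17 ± 0.39, adjusted p = 0.00374). In all 3 genes Low replicate 1 was the highest Low library and lay below every High library.

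The remaining rises were of genes with few reads in Low. The gene col-158 had 11.0, 16.0 and 21.3 normalized counts in High and 0, 0 and 1.06 in Low, that is 54 reads in High and 1 in Low. The ratio of High over Low in normalized reads was 48.3, with an exact 95% binomial interval of 8.31 to 1944 that covers counting error only. The fitted log2 difference was 3.70 ± 0.55 (limma adjusted p = 0.00101).

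The gene col-53 had 24.2, 18.7 and 18.0 in High and 0, 0.764 and 2.12 in Low, from 65 and 3 reads. Its ratio was 19.4 with an exact interval of 6.35 to 96.5, and the fitted difference was 3.58 ± 0.52 (limma adjusted p = 0.000758). The gene col-89 had 17.6, 14.2 and 9.82 in High and 3.03, 2.29 and 4.23 in Low (1.82 ± 0.41, adjusted p = 0.017). Its groups did not overlap. The call of col-89 was lost in DESeq2 and on leaving out any 1 of High replicate 1, High replicate 2 and Low replicate 2, with adjusted p-values up to 0.107.

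The adult-stage genes col-7 and col-62 lie next to each other on chromosome I and had the same values in every library. Both had 17.6, 18.7 and 20.5 in High and 6.06, 0.764 and 3.18 in Low (2.41 ± 0.50, limma adjusted p = 0.01). All High values lay above all Low values. Which of the 2 genes a read came from is uncertain, so they are 1 observation, and counting features of identical values once left 13 of 31 tested col genes called higher. Their call was lost without High replicate 2 or High replicate 3 (adjusted p up to 0.0538).

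**Figure D3:**
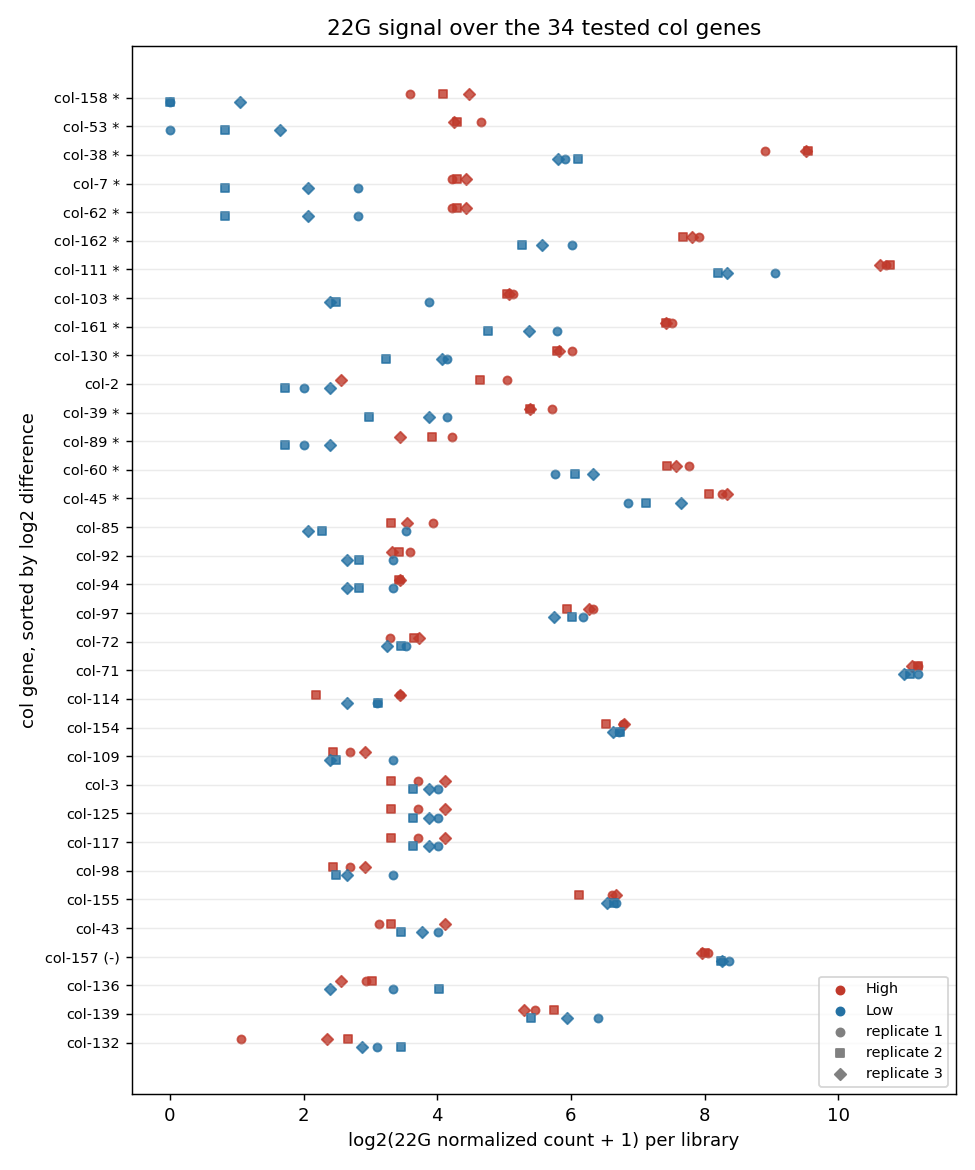
Each library's log2 of the 22G normalized count plus 1 (x axis) for the 34 tested col genes (y axis, sorted by log2 difference), in red for High and blue for Low with a marker shape for each replicate. An asterisk marks the 14 genes called higher and (-) the gene called lower, and in all 14 the red points lie to the right of the blue.

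The 1 call in the other direction was small and changed with the settings. The gene col-157 had 263, 256 and 247 normalized counts in High against 329, 303 and 305 in Low. The groups were apart by a narrow gap. The log2 difference was -0.29 ± 0.08 (limma adjusted p = 0.0496), and the call was lost in 11 of 17 alternative settings, among them each of the 6 that left out a library, with adjusted p-values up to 0.244.

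The most abundant member did not pass. The gene col-71 had 2339.6, 2332 and 2189 normalized counts in High against 2328, 2157 and 2022 in Low, and its groups overlapped. Its log2 difference was 0.08 ± 0.06 (limma adjusted p = 0.636). Per kilobase of exon its level of 1743 in High and 1653 in Low was the highest of the col genes matched to the annotation in both groups. The member col-154 had 109, 91.5 and 109.7 in High and 105, 105 and 98.4 in Low, with a difference of 0.00 ± 0.12 (adjusted p = 0.993). Its neighbour in level, col-155, had 96.9, 68.4 and 101.5 in High and 101.5, 99.3 and 92.1 in Low (-0.15 ± 0.16, adjusted p = 0.714). Values overlapped in both. The genes col-97 and col-139, at means of 67.2 and 53.1, differed by 0.20 ± 0.16 and -0.41 ± 0.24 and did not pass (adjusted p = 0.636 and 0.44).

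The tested members that were not called had log2 differences from -1.12 to 2.04. The upper end was the dauer-stage collagen gene col-2, with 31.9, 24.0 and 4.91 normalized counts in High and 3.03, 2.29 and 4.23 in Low. High replicates 1 and 2 were high and High replicate 3 lay just above the Low libraries. The difference was 2.04 ± 0.60 (limma adjusted p = 0.0705), and it passed without High replicate 3 (0.00252), with no filter (0.0283) and in DESeq2 (0.011). The lower end was col-132, with 1.101, 5.33 and 4.09 in High and 7.58, 9.93 and 6.35 in Low (-1.12 ± 0.53, adjusted p = 0.311). The gene col-85 had 14.3, 8.88 and 10.6 in High and 10.6, 3.82 and 3.18 in Low (0.97 ± 0.46, adjusted p = 0.318), with overlapping groups. The neighbours col-92 and col-94 on chromosome III, separated by col-93, had nearly the same values as each other. Their differences were 0.51 ± 0.36 and 0.50 ± 0.36 (adjusted p = 0.571 and 0.577).

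The members col-3, col-117 and col-125 on chromosome IV had the same values as one another in every library, so how reads were shared among them is uncertain. They were at 12.1, 8.88 and 16.4 in High and 15.2, 11.5 and 13.8 in Low (-0.13 ± 0.32, limma adjusted p = 0.897). The genes col-98 and col-109 differed from each other in Low replicate 3 alone, at 5.29 and 4.23, and had differences of -0.14 ± 0.44 and -0.05 ± 0.45. Below the minimum, col-10 and col-144 shared values of 5.50, 3.55 and 2.46 in High against 4.55, 0 and 1.06 in Low, and col-95 and col-96 shared 6.61, 3.55 and 0.818 against 4.55, 2.29 and 3.18. The genes col-80 and col-119 had the same few High reads, at 1.101, 2.66 and 0.818, and no Low read. The remaining tested members col-43, col-72, col-114 and col-136 had differences between -0.41 and 0.15, and none passed. Of these, col-136 is annotated as a pseudogene.

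At the minimum itself, col-109 and col-132 were the last members inside, with means of 5.73 and 5.73, and col-133 was the first outside, with 4.51. The 73 members with reads below it had 120, 128 and 117 reads in total in the High libraries and 67, 61 and 58 in the Low libraries. Their summed signal in normalized counts was 114 ± 18.2 over the High libraries and 69.8 ± 28.4 over the Low libraries (SD, n = 3), and Low replicate 1, at 101.5, reached into the High range of 95.8 to 132. Of the 73, 49 had a higher mean in High and 24 in Low. Reads were in High alone for 22 of them and in Low alone for 13. The same counts over all features below the minimum are not given here, so nothing about these members is read from them. With no filter, 107 members were tested and 16 were called higher, the 14 and also col-2 and col-88, against 3.29% of all 17873 features with a read. The gene col-88 had 11.0, 2.66 and 7.37 in High and 0, 2.29 and 0 in Low.

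Members were listed as adult-stage or dauer-stage from general knowledge of the genes, and these stage labels, here and above, could not be checked in the tables. Of the 7 adult-stage members, col-7, col-38 and col-62 were tested and called higher. The other 4 had little or no 22G signal. The genes col-17, col-19 and col-49 had no read in any library, and col-63 had 2.20, 1.78 and 0.818 in High and 0, 0 and 1.06 in Low. The adult-stage list, with a median log2 difference of 2.41, contains 2 genes of identical values, col-7 and col-62. Both had a Low mean of 3.33 and reached the minimum only through the High libraries. Nothing is therefore read from the count of adult-stage calls or from this median. Over all tested features 5.64% were called higher. Of the dauer-stage genes, col-2 is described above, and col-40 had 2.20, 5.33 and 0 in High and 1.52, 0 and 1.06 in Low.

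Low replicate 1 was the highest of the 3 Low libraries in 8 of the 14 members called higher, or 57.1%. Both col-7 and col-62, which have identical values and are 1 observation, are among these 8. Over all 530 features called higher this was so for 196, or 37.0%. Without Low replicate 1 the same 14 col genes were called higher, and the log2 ratio of the summed signal was 0.87 in place of 0.79. Its part in the values of the Low group was not tested further.

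Tested members came from every chromosome but X. Chromosome X held 28 members and none reached the minimum, where 23.7% of all protein-coding features of that chromosome did. Chromosome I held 22 members, of which 5 were tested, and all 5 were called higher, where 7.52% of tested protein-coding features of chromosome I were. These 5 were col-7, col-45, col-53, col-60 and col-62, of which col-7 and col-62 have identical values and are 1 observation, and 3 of the 5 had a Low mean under 5. On chromosome IV 3 of 11 tested members were called higher, on V 3 of 8, on II 2 of 5 and on III 1 of 5, where the shares over tested protein-coding features were 6.78%, 6.15%, 4.89% and 7.17%. The called genes col-89 on III and col-158 on V also had Low means under 5 and reached the minimum only through the High libraries. The 11 tested members on IV include col-3, col-117 and col-125, which have identical values in every library. Nothing is therefore read from the counts on I, III, IV and V. For col-70 no chromosome was found. Chromosomes come from the WBcel235 annotation, and no coordinates are printed because no source used here names the build of the files.

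Genes next to the 14 members were looked at in the same fit. The protein-coding genes adjacent to or overlapping these members, other than col genes, numbered 30, of which 16 had enough 22G signal for a test. None of the 16 was called higher and 1 was called lower by limma, edgeR and DESeq2 alike, and at an unadjusted limma p under 0.05 there were 2 higher and 2 lower. Over all tested features 5.64% were called higher and 2.66% lower by limma. At such shares few calls fall among 16 genes, so nothing is read from these counts. The median log2 difference of the 16 neighbours was 0.10. The gene mes-4, which encodes a histone methyltransferase and lies beside col-162, was at 216 ± 9.35 in High and 208 ± 14.7 in Low (log2 difference 0.06 ± 0.09). The ribosomal protein gene rpl-5, beside col-38, had 123 ± 10.4 and 107 ± 2.34 (0.19 ± 0.11). Beside col-45, F53G12.8 had 364 ± 22.1 and 312 ± 32.1 (0.23 ± 0.09).

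Of the 14 members, 6 overlap a protein-coding gene on the opposite strand. Without the counted strand, the gene of origin of a read within an overlap is uncertain. The 2 genes of each pair had separate values, which were unlike in High. The partner of col-53, F55F8.2, had 67.0 ± 4.54 in High and 71.3 ± 5.15 in Low, and the partner of col-39, dph-2, had 65.9 ± 5.44 and 66.0 ± 11.6. Neither was called, and the log2 differences were -0.09 ± 0.13 and 0.01 ± 0.16. The partner of col-111, psr-1, had 13.9 ± 5.02 and 17.1 ± 5.02. The partners of col-103, col-130 and col-158, which are gst-40, ugt-65 and nphp-4, were too low for a test, at means of at most 1.23 in either group.

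The 1 neighbour called lower was F08G5.3, the gene adjacent to col-130 on the same strand. Its normalized count was 16.1 ± 8.04 over the High libraries and 209.8 ± 7.56 over the Low libraries (SD, n = 3), a log2 difference of -3.72 ± 0.26, while col-130 beside it rose by 2.06. The gene was singled out after its values were seen.

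**Figure D4:**
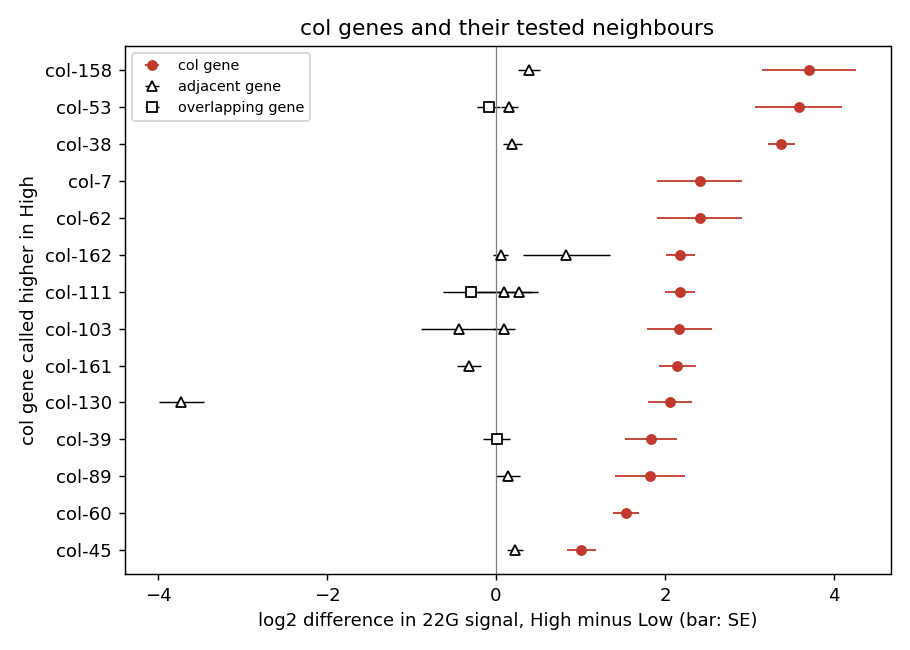
Log2 difference in 22G signal with its SE (x axis) for the 14 col genes called higher (y axis, red circles) and for the adjacent (open triangles) and overlapping (open squares) protein-coding genes that were tested. The neighbours lie between -0.44 and 0.83 apart from F08G5.3 beside col-130, at -3.72.

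Other genes of the cuticle pathway held fewer testable members. Over all tested features 5.64% were called higher and 2.66% lower. Of 20 cuticle collagen genes with other names, 5 were tested and 1 was called higher, dpy-17, with 209 ± 89.1 in High against 1.72 ± 0.344 in Low (6.20 ± 0.31, limma adjusted p = 3.13e-07). With that Low mean, dpy-17 reached the minimum only through the High libraries. The others tested were bli-6, dpy-10, dpy-13 and sqt-3, with log2 differences of 0.70 ± 0.42, 0.50 ± 0.34, 0.35 ± 0.40 and -0.03 ± 0.34. The median of the 5 was 0.50. Of 19 genes for collagen modification, processing and crosslinking, 17 were in the table and 5 were tested. One of them was called lower, dpy-31, which encodes an astacin metalloprotease that trims collagen chains. It had 816, 712 and 733 in High and 1114, 1229 and 1113 in Low (-0.61 ± 0.07, limma adjusted p = 0.000189). The others, the protein disulfide isomerase genes pdi-1 and pdi-2, the subtilisin-like protease gene bli-4 and the dual oxidase gene bli-3, differed by -0.07 to 0.14 and did not pass.

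Cuticlins, which are cuticle proteins that are not collagens, had calls in both directions. All 35 were in the table, and 6 were tested, of which 2 were called higher and 1 lower, with a median log2 difference of 0.49. The shares over all tested features were 5.64% and 2.66%. The gene cutl-26 had 5.50, 17.8 and 19.6 normalized counts in High, while the Low libraries had no read of it, so High was at least 14.6-fold higher when Low was set to a floor of 3 counts over the group. With cutl-26 at that bound the median was the same. This gene reached the minimum only through the High libraries, so nothing is read from its part in the count. The gene cutl-14 had 46.0 ± 18.3 and 16.7 ± 2.10 (1.35 ± 0.27, limma adjusted p = 0.00842). The gene cutl-10 had 23.0 ± 8.75 and 53.2 ± 9.04 (-1.23 ± 0.26, adjusted p = 0.0109). The most abundant cuticlin gene, cutl-15, had 43.6 ± 6.32 and 43.2 ± 11.6 (0.04 ± 0.22, adjusted p = 0.962). Of 10 genes for epidermal transcriptional regulators, 5 were tested and 0 were called by limma, edgeR or DESeq2, and 0 had an unadjusted limma p under 0.05, with a median of -0.04. The most abundant, the nuclear receptor gene nhr-23, had 332 ± 21.02 and 341 ± 21.3 (-0.04 ± 0.08, adjusted p = 0.895). Of the 3 basement membrane collagen genes emb-9, let-2 and cle-1 none reached the minimum, and the highest was cle-1 at 3.65 ± 0.403 and 1.01 ± 0.879.

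Genes of other tissues were counted in the same fit, where 5.64% of all tested features were called higher and 2.66% lower. Of the tested genes, 0 of 6 for intestine, 0 of 6 for oocyte and eggshell and 0 of 1 for sperm were called by limma, edgeR or DESeq2. At an unadjusted limma p under 0.05 there was 1 gene, of the oocyte and eggshell list, cbd-1. It was the most abundant of that list, at 533 ± 22.7 in High against 473 ± 6.32 in Low (0.17 ± 0.07, limma adjusted p = 0.199). The most abundant of the intestine list was the vitellogenin gene vit-5, at 21.02 ± 1.90 and 28.6 ± 4.12 (-0.42 ± 0.22, adjusted p = 0.37), and the tested sperm gene was the major sperm protein gene msp-77, at 6.43 ± 1.03 and 3.60 ± 2.33 (0.81 ± 0.52, adjusted p = 0.5). The muscle list had 1 of 1 called higher, the myosin gene unc-54, at 4486 ± 182 and 3522 ± 128 (0.35 ± 0.05). The transgene carries the unc-54 3′ UTR in both groups, and its part in these reads was not tested.

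In the other small RNA classes col genes carried almost no reads. The name 26G is used for primary small RNAs of the Argonautes ERGO-1, ALG-3 and ALG-4, and the definition behind this class is not given. In the 26G class 5 members had a read, 11 reads in all of 147085 in the class. These lay over col-111, col-71, col-60, col-121 and col-136, with at most 1 read in any library for each of col-111 and col-71. None reached the minimum, so the class gave no test of a col gene.

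In the 21U class, a name used for the piRNAs bound by PRG-1, 29 members had a read, 219 reads in all of 279046, or 0.0785%. In the 22G class the share was 0.252%. The gene col-71 alone reached the minimum. It had 19.8, 24.0 and 26.2 normalized counts in High against 18.2, 22.2 and 15.9 in Low, and its groups overlapped. The difference was 0.31 ± 0.30 (limma adjusted p = 0.591, unadjusted 0.333), in a class where 0.169% of 592 tested features were called. The median difference of all tested 21U features was -0.38 with the deposited scaling and -0.02 after scaling by the trimmed mean of M values (TMM), where col-71 was at 0.69 (adjusted p = 0.285). Next in level were col-111, with 7, 7 and 3 reads in High against 1, 0 and 3 in Low, and col-38, with 1, 5 and 6 in High and 1, 1 and 0 in Low. Both fell below the minimum.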

How the data were processed

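Each of 3 deposited tables, for 22G, 26G and 21U, gives per feature and library a signal that is a read count the authors divided by 1 size factor per library. The submitters' processing notes name DESeq2 1.8.1, featureCounts 1.4.6, Bowtie 1.1.1 and cutadapt 1.7.1, without settings. The sources used here give no genome build, strand or treatment of reads mapping to several places. Reads were recovered from the value of a single read (100% whole within 0.01), and replicate libraries differed by more than counting noise.

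Features with a mean of at least 5 entered limma-trend (R 4.3.3, limma 3.58.1), two-sided, in each class separately; ± gives an SD for means and an SE for differences. An exact permutation test of 3 against 3 cannot give a two-sided p below 0.1, so none was run. Alternatives used a replicate block, pseudocounts 0.5 and 5, no filter, a minimum of 20, TMM, equal totals, no variance trend, edgeR 4.0.16, DESeq2 1.42.0, each library left out, and identical features counted once.

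Named genes are all called members, the 8 most abundant, the 5 uncalled of smallest p, the 3 lowest differences, those at the minimum or with values identical to another member's, the stage lists, the leading 26G and 21U members and, from other lists, the called and most abundant genes; further tested members, neighbours and col-88 fall outside that rule, and members matching a feature of another family at a mean under 5 are not listed. Members and lists were chosen with earlier results of these data known. By name, 155 members matched Ensembl release 115, which gave exon lengths, and 3 matched RefSeq.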

Additional observations from a re-analysis of the deposited data

How the results depend on the processing

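The count of 14 col genes called higher ranged from 11 to 14 when a library was left out. It was 9 with a minimum mean of 20, where 15 col genes were tested, and 13 to 16 under the other settings. The 9 include col-39, col-103 and col-130, which reached a mean of 20 only through the High libraries. The count was 14 in edgeR and 14 in DESeq2, of which 13 were shared. Of the 14, 10 kept their call under every alternative that tested them, and the other 4 are col-7, col-62, col-45 and col-89. The 1 call of a lower col gene became 0 with a replicate block, with a pseudocount of 0.5, with no filter, in limma without trend and in DESeq2, and was 0 each time a library was left out. Over all features the 22G calls numbered 780, with 782 under the replicate block, 772 in edgeR, 703 in DESeq2 and 524 in limma without trend, and 634 to 797 with a library left out.

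No pairing of the libraries by replicate number was seen. Deviations of same-numbered 22G libraries from their group means correlated at 0.03, 0.05 and 0.02 across features, and with the numbers as a replicate block 14 col genes were higher.

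The log2 ratio of the summed col signal, 0.79, was 1.398 without col-71 and 0.75 to 0.87 with a library left out. In the 21U class the 1 feature called became 0 under the replicate block, 28 with no filter, 2 with a minimum of 20, 3 after TMM, 69 in DESeq2, 2 with identical features once and 0 to 53 with a library left out. col-71 was called under none of these. Their cause was not tested.

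Differences of uncalled genes near 0 changed sign. With a library left out, the log2 difference ran from -0.26 to 0.023 for col-155, from -0.34 to 0.070 for each of col-117, col-3 and col-125, from -0.31 to 0.12 for col-98, from -0.14 to 0.49 for col-114, from -0.22 to 0.25 for col-109 and from -0.041 to 0.089 for col-154. For col-154 it was also -0.0011 after TMM and -0.013 with equal totals. Depth limits the members under 5, where 1 read is worth up to 1.52 normalized counts.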
